A study of Mus musculus with 20 samples.

Results

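miR-92b is a microRNA (miRNA), a regulatory RNA cut from a hairpin precursor whose 5′ side yields miR-92b-5p and whose 3′ side yields miR-92b-3p. Both arms, mmu-miR-92b-3p and mmu-miR-92b-5p, were taken by name from the count list of every library, and they were 2 of the 1886 lines that hold mature miRNAs. The libraries are small RNA libraries of primary midbrain neuron cultures from C57Bl6/J mice, prepared from the ventral mesencephalon of E12.5 embryos and grown without serum. The 4 groups, of 5 libraries each, were cultures on day 5 in vitro with 10 ng/ml GDNF (DIV5 GDNF), on day 5 without it (DIV5 control), on day 1 with 10 ng/ml GDNF (DIV1 GDNF) and on day 1 without it (DIV1 control). GDNF, glial cell line-derived neurotrophic factor, is a growth factor known for keeping midbrain dopamine neurons alive, and the series was set up to compare cultures with and without it on both days. The groups shared strain, embryonic age, dissection and medium, and the labels describe mixed dissociated tissue, not a sorted cell type. Whether the 5 replicates were different animals or cultures is not in the labels, so every p-value measures the spread between these libraries only, which may be technical.

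A miRNA guides an Argonaute protein to messenger RNAs mainly through its seed, the bases from position 2 to position 8, and the bound messages are degraded or translated less. Usually 1 arm of a hairpin is loaded and accumulates while the other is degraded. miR-92b belongs to the miR-25/92 family, which shares its seed with miR-92a of the miR-17-92 cluster, and it is known in the embryonic mouse cortex as a miRNA of neural progenitors that restrains intermediate progenitors by repressing Eomes (Tbr2).

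Sequences are from RefSeq (build GRCm38.p6), which held both arms and all other family members. The hairpin Mir92b lies on the minus strand at chr3:89227116-89227198 and is 83 bases long. It overlapped no other gene of the GENCODE vM21 annotation, and its nearest genes were Mtx1, 28 bp away on the same strand, and Thbs3, 279 bp away on the plus strand. The hairpin is shown to place the arms, which are in capitals, with the 5p arm first and 17 bases between them.
Mir92b hairpin: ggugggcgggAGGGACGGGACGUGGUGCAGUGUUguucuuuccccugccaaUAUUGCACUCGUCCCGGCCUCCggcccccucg
The mature arms and the family members are shown because the comparisons within the seed family rest on what they share. Capitals mark the seed (bases 2 to 8).
miR-92b-5p: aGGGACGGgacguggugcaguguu
miR-92b-3p: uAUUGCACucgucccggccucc
miR-92a-3p: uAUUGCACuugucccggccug
miR-25-3p: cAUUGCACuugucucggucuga
miR-363-3p: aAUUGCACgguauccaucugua
miR-32-5p: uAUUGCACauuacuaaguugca
miR-367-3p: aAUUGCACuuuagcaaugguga
miR-92b-3p (chr3:89227126-89227147) is 22 bases long with 63.6% G and C, and miR-92b-5p (chr3:89227165-89227188) is 24 bases long with 62.5%. The seed AUUGCAC stands in 6 of the 1679 mature mouse miRNAs in the RefSeq table, the 6 named above, whereas GGGACGG stands in miR-92b-5p alone. Aligned from the 5′ end without gaps, miR-92b-3p is identical to miR-92a-3p at 19 of 21 bases. With positions counted from 1 at the 5′ end and the base of miR-92b-3p first, the 2 substitutions are C10U and C21G. miR-25-3p matches miR-92b-3p at 16 of 22 bases, miR-32-5p at 11 of 22, and miR-363-3p and miR-367-3p at 10 of 22 each.

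Library totals ran from 420118 to 4324505 miRNA counts, so that 1 read was worth 0.231 to 2.38 CPM (counts per 1000000 counts), and a count of 0 would allow up to 0.694 to 7.14 CPM (3 reads, covering counting error only). In DIV5 control libraries 1 and 5, 43 of 542 tested miRNAs (7.93%) were at least 2-fold above the mean of DIV5 control libraries 2 to 4 in both. No other pair of libraries was compared in this way, so this count has no baseline. miR-92b-5p was among those 43 and miR-92b-3p was not, so results that rest on these libraries are given with and without them. They are also the DIV5 libraries where miR-92b-5p was highest, so leaving them out is not an independent check of its values. The files hold miRNAs and no messenger RNAs, so markers of neural progenitors such as Eomes could not be checked, and miR-92b is treated here as a miRNA of the whole culture.

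miR-92b-3p was the 5th most abundant miRNA of the series, with a mean of 3.65% ± 1.79 of all counts (SD, n = 20), and it was more abundant on day 1 than on day 5. In DIV5 GDNF libraries it had 18613, 18158, 21449, 22283 and 17494 CPM after TMM scaling. In DIV5 control libraries it had 12615, 20798, 18809, 21139 and 16199 CPM. In DIV1 GDNF libraries it had 68826, 57714, 54373, 56500 and 49259 CPM. In DIV1 control libraries it had 67588, 56491, 56260, 51827 and 46870 CPM. All 10 DIV5 libraries lay below all 10 DIV1 libraries, the lowest DIV5 library was control library 1, and GDNF and control libraries of the same day overlapped.

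**Figure D1:**
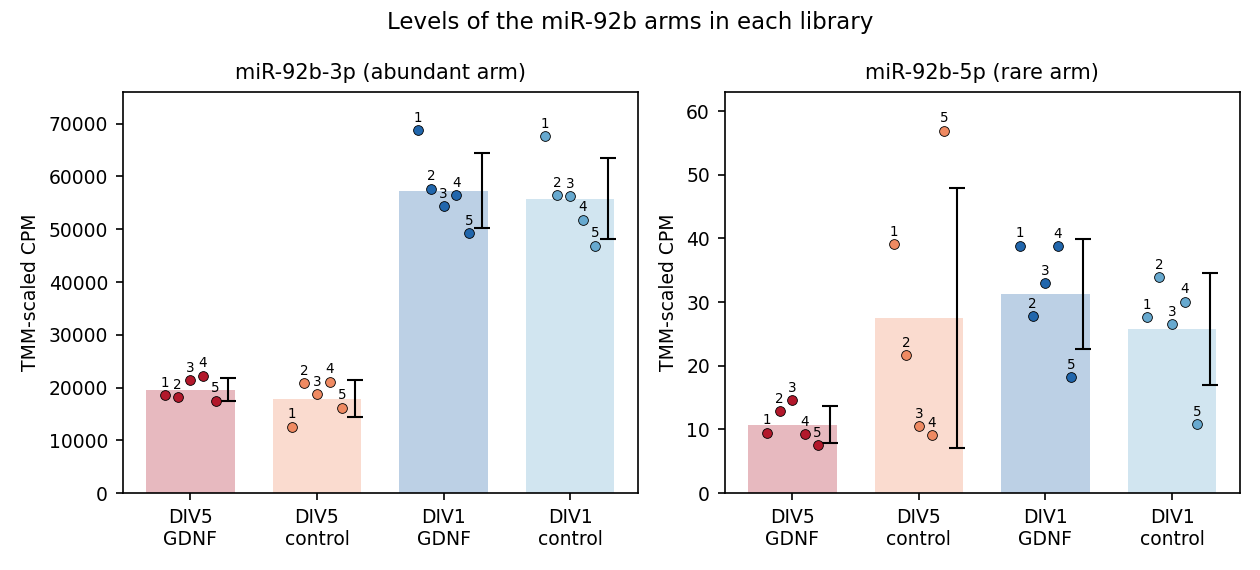
TMM-scaled CPM (y axis, linear from 0) of miR-92b-3p (left) and miR-92b-5p (right) by group, where each point is a library with its replicate number, bars are group means and error bars are 1 SD (n = 5). miR-92b-3p is between 46870 and 68826 CPM in every DIV1 library and between 12615 and 22283 CPM in every DIV5 library, whereas miR-92b-5p reaches 39.1 and 56.9 CPM in DIV5 control libraries 1 and 5 and at most 21.7 CPM in the other 8 DIV5 libraries.

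As a share of all counts, miR-92b-3p held 2.04% ± 0.219 in DIV5 GDNF, 1.97% ± 0.346 in DIV5 control, 5.40% ± 0.907 in DIV1 GDNF and 5.20% ± 0.793 in DIV1 control libraries (SD, n = 5 each). The 95% Wilson intervals of single libraries were at most 0.126 percentage points wide, so counting error was smaller than the spread between libraries. By mean share miR-92b-3p ranked 11th in DIV5 GDNF, 14th in DIV5 control and 4th in both DIV1 groups. Its rank in single libraries lay between 8 and 20 on day 5 and between 2 and 5 on day 1.

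miR-92b-3p fell with time in culture. With GDNF it averaged 19600 ± 2127 CPM on day 5 and 57334 ± 7192 CPM on day 1 (SD, n = 5 each), a 2.93-fold lower level (log2 fold change -1.55 ± 0.136 SE, 95% interval -1.83 to -1.26, edgeR quasi-likelihood test with Benjamini-Hochberg adjusted p = 1.99e-08). Without GDNF it averaged 17912 ± 3555 CPM on day 5 and 55807 ± 7668 CPM on day 1, a 3.12-fold lower level (log2 fold change -1.64 ± 0.137 SE, 95% interval -1.92 to -1.36, edgeR adjusted p = 1.18e-08). Of all 542 miRNAs tested, 52.4% passed the adjusted threshold of 0.05 with GDNF (27.3% lower, 25.1% higher) and 60.7% without it (29.3% lower, 31.4% higher), so a call between the days was common. Ranked by p, miR-92b-3p was the 5th of 542 with GDNF and the 3rd without. Ranked by log2 fold change from the lowest, it was the 29th and the 26th.

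The share of counts gave the same order as the scaled level. The difference of day 5 minus day 1 was -3.37 percentage points with GDNF and -3.23 without, with no overlap between the days (exact two-sided permutation test, p = 0.00794 each, the smallest p that 5 against 5 libraries allow, adjusted over 12 tests p = 0.0317). With GDNF the adjusted p was 0.0635 when DIV5 GDNF library 1, 3, 4 or 5 or DIV1 GDNF library 2, 3, 4 or 5 was left out (exact p = 0.0159 in each case, the smallest that 5 against 4 libraries allow). Without GDNF the difference was -3.02 percentage points when DIV5 control libraries 1 and 5 were left out, again with no overlap (adjusted p = 0.107, exact p = 0.0357, the smallest that 5 against 3 libraries allow). DIV5 libraries were deeper than DIV1 libraries, at 1061619 to 4324505 against 420118 to 1761023 counts. Reads assigned to no feature, as a percent of these reads and the miRNA counts together, were 9.51% to 19.5% on day 5 and 16.5% to 22.6% on day 1. The part of depth and of these reads in the fall was not tested. In bulk libraries, fewer cells that make miR-92b and less of it per cell cannot be told apart.

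GDNF did not move miR-92b-3p beyond the spread between libraries on either day. On day 5 it averaged 19600 ± 2127 CPM with GDNF and 17912 ± 3555 CPM in controls (log2 fold change 0.13 ± 0.133 SE, 95% interval -0.15 to 0.41, edgeR adjusted p = 0.770). Without DIV5 control libraries 1 and 5 the direction turned, to a log2 fold change of -0.062 (edgeR adjusted p = 0.999) and a difference in share of counts of -0.144 percentage points. On day 1 it averaged 57334 ± 7192 CPM with GDNF and 55807 ± 7668 CPM in controls (log2 fold change 0.04 ± 0.133 SE, 95% interval -0.24 to 0.32, edgeR adjusted p = 1.0). The intervals still allow changes up to 1.33-fold on day 5 and 1.25-fold on day 1. The difference between the GDNF effects of the days was 0.09 ± 0.189 SE on the log2 scale (95% interval -0.30 to 0.48, edgeR adjusted p = 0.951). Over all miRNAs, GDNF gave 1 call on day 5 (0.185% of those tested, against 88 miRNAs at an unadjusted p under 0.05) and 0 on day 1 (percent called 0, with 7 at an unadjusted p under 0.05). DESeq2 called 26 miRNAs on day 5 (5.01%) and 0 on day 1, and limma voom called 1 and 0. With the replicate number as a block, edgeR called 3 miRNAs on day 5 (0.554%).

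**Figure D2:**
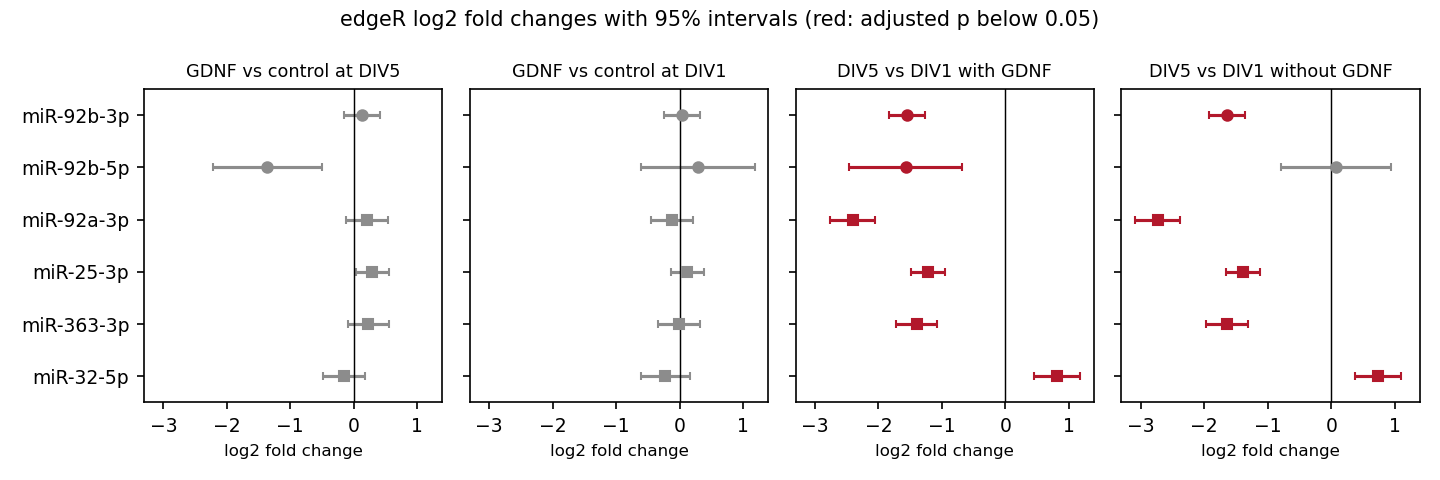
edgeR log2 fold changes (x axis) with 95% intervals of both miR-92b arms (circles) and of the tested miRNAs that share the seed of miR-92b-3p (squares), in 4 panels, one a comparison, with red for an adjusted p below 0.05 and grey otherwise. No point is red in the GDNF panels, and in the day panels miR-92b-3p, miR-92a-3p, miR-25-3p and miR-363-3p lie left of 0 and miR-32-5p right of it.

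Within its seed family, miR-92b-3p was a larger part on day 5 than on day 1, as were miR-25-3p, miR-363-3p and miR-32-5p. The 6 miRNAs with the seed AUUGCAC held 3.50% ± 0.111 of all counts in DIV5 GDNF, 3.29% ± 0.427 in DIV5 control, 11.2% ± 1.30 in DIV1 GDNF and 11.2% ± 1.72 in DIV1 control libraries. miR-92b-3p made up 54.8%, 48.9%, 61.1%, 66.0% and 60.2% of these counts in DIV5 GDNF libraries. In DIV5 control libraries its part was 54.1%, 56.8%, 59.0%, 66.6% and 61.4%. In DIV1 GDNF libraries it was 52.9%, 48.8%, 45.0%, 46.3% and 48.1%, and in DIV1 control libraries 47.3%, 44.0%, 47.9%, 44.8% and 47.6%. Control libraries of the 2 days did not overlap, whereas DIV5 GDNF library 2 lay within the range of the DIV1 GDNF libraries.

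The mean part of miR-92b-3p in the family was 59.6% ± 4.77 in DIV5 control and 46.3% ± 1.76 in DIV1 control libraries, 13.3 percentage points higher on day 5 with no overlap (exact two-sided permutation p = 0.00794, adjusted over 12 tests p = 0.0317). With GDNF it was 58.2% ± 6.57 on day 5 and 48.2% ± 3.02 on day 1, 9.97 points higher (exact permutation p = 0.0159, adjusted p = 0.0476). That adjusted p was 0.0952 when DIV5 GDNF library 1, 3, 4 or 5 or DIV1 GDNF library 2, 3, 4 or 5 was left out. Without DIV5 control libraries 1 and 5 the difference in controls was 14.5 points, again with no overlap (exact permutation p = 0.0357, the smallest that 5 against 3 libraries allow, adjusted p = 0.107). The size of the difference followed a split among the DIV5 libraries. In replicates 1 and 2 of both DIV5 groups the part was 48.9% to 56.8%, whereas in replicates 3 to 5 it was 59.0% to 66.6%. The reads assigned to no feature, out of these reads and the miRNA counts together, were 17.7% to 19.5% and 9.51% to 13.3% in the same order. Against the DIV1 libraries, replicates 3 to 5 gave 14.2 points with GDNF and 16.0 without. Replicates 1 and 2 gave 3.59 points with GDNF and 9.12 without. The split was chosen after seeing these same values, so a p-value cannot test it and these differences only describe it. What this split stands for is not in the labels, and its part in the result was not tested. GDNF gave differences of -1.39 points on day 5 (adjusted p = 0.788, exact p = 0.706) and 1.90 points on day 1 (adjusted p = 0.476, exact p = 0.278).

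miR-92a-3p, which comes from the miR-17-92 cluster and its X-linked paralog, was the other main member. It held 27.9% ± 5.12 of family counts in DIV5 GDNF, 27.4% ± 3.23 in DIV5 control, 42.5% ± 2.27 in DIV1 GDNF and 45.1% ± 2.05 in DIV1 control libraries. The part of miR-25-3p was higher on day 5 as well, at 13.2% ± 1.803 in DIV5 GDNF, 12.3% ± 1.73 in DIV5 control, 8.83% ± 0.984 in DIV1 GDNF and 8.09% ± 1.09 in DIV1 control libraries, and that of miR-363-3p was 0.554% ± 0.104, 0.529% ± 0.0687, 0.411% ± 0.0253 and 0.409% ± 0.0340 in the same groups. That of miR-32-5p was 0.0910% ± 0.0203, 0.117% ± 0.0280, 0.0150% ± 0.00323 and 0.0175% ± 0.00447. A higher part on day 5 was thus not seen for miR-92b-3p alone, and the differences in the parts of the other members were not tested. The parts are not independent, since where miR-92a-3p was a smaller part the others together were a larger one. There were 1.40 to 2.95 reads of miR-92b-3p per read of miR-92a-3p in DIV5 GDNF libraries and 1.01 to 1.34 in DIV1 GDNF libraries. In control libraries the ratio was 1.78 to 2.96 on day 5 and 0.923 to 1.11 on day 1. miR-92a-3p is encoded by 2 hairpins, and how reads that match several positions were counted is not given in the sources used here, so the ratio between these members may depend on it, and miR-92a-3p differs from miR-92b-3p at only 2 of 21 bases.

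**Figure D3:**
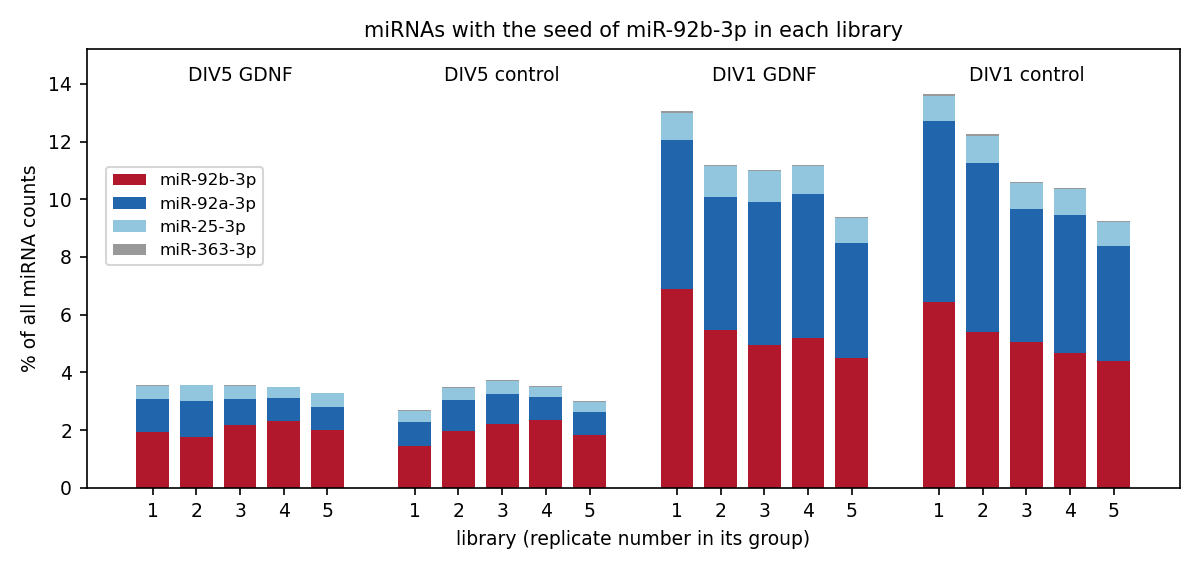
Percent of all miRNA counts (y axis) held by 4 miRNAs with the seed of miR-92b-3p in each of the 20 libraries (x axis, replicate number in its group), stacked with miR-92b-3p at the base. The whole stack is 9.26% to 13.6% of counts in DIV1 libraries and 2.69% to 3.73% in DIV5 libraries, and miR-92b-3p is the largest segment of each DIV5 stack. miR-32-5p and miR-367-3p are too rare to be drawn.

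The edgeR fit gave each tested family member a call between the days. Such calls were common: of all tested miRNAs, 52.4% were called with GDNF (27.3% lower, 25.1% higher) and 60.7% without (29.3% lower, 31.4% higher). With GDNF, the log2 fold change of day 5 over day 1 was -2.41 ± 0.170 for miR-92a-3p, -1.55 ± 0.136 for miR-92b-3p, -1.40 ± 0.158 for miR-363-3p and -1.22 ± 0.127 for miR-25-3p (SE, highest adjusted p of the 4 3.7e-07). Without GDNF it was -2.73 ± 0.172 for miR-92a-3p, -1.64 ± 0.137 for miR-92b-3p, -1.64 ± 0.160 for miR-363-3p and -1.39 ± 0.127 for miR-25-3p (highest edgeR adjusted p 5.17e-08). miR-32-5p rose, by 0.81 ± 0.175 with GDNF (edgeR adjusted p = 0.000654) and by 0.74 ± 0.172 without (edgeR adjusted p = 0.000965). It was rare, at 8 to 177 reads per library. miR-367-3p, a miRNA of pluripotent cells, had 0 to 6 reads per library and was too low to test. No family member was called for GDNF on either day.

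miR-92b-5p was the rare arm, with 7 to 261 reads per library against 18961 to 100373 reads of miR-92b-3p, and it ranked between 293 and 451 among miRNAs. In DIV5 GDNF libraries it had 19, 22, 59, 37 and 29 reads, or 9.52, 12.8, 14.6, 9.23 and 7.54 CPM. In DIV5 control libraries it had 83, 22, 53, 30 and 261 reads, or 39.1, 21.7, 10.5, 9.08 and 56.9 CPM. In DIV1 GDNF libraries it had 28, 31, 53, 39 and 7 reads, or 38.9, 27.8, 33.0, 38.8 and 18.2 CPM. In DIV1 control libraries it had 41, 37, 19, 23 and 7 reads, or 27.6, 33.9, 26.5, 30.1 and 10.8 CPM. The DIV5 GDNF libraries all lay below the DIV1 GDNF libraries, and DIV5 control libraries 1 and 5 lay above all other DIV5 libraries.

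With GDNF, miR-92b-5p fell with time in culture as miR-92b-3p did. It averaged 10.7 ± 2.89 CPM on day 5 and 31.3 ± 8.66 CPM on day 1, 2.97-fold lower (log2 fold change -1.57 ± 0.427 SE, 95% interval -2.46 to -0.68, edgeR adjusted p = 0.00426). Without GDNF it averaged 27.5 ± 20.4 CPM on day 5 and 25.8 ± 8.82 CPM on day 1 (log2 fold change 0.08 ± 0.413 SE, 95% interval -0.78 to 0.94, edgeR adjusted p = 0.878). This value depended on DIV5 control libraries 1 and 5, without which the log2 fold change was -1.04 (edgeR adjusted p = 0.0130, where 53.8% of miRNAs passed). miR-92b-5p was highest on day 5 in these libraries, so leaving them out favors a fall, and this p-value cannot test one. With a single library left out, the log2 fold change was below 0 in 3 cases: -0.41 without DIV5 control library 5, -0.09 without DIV5 control library 1 and -0.08 without DIV1 control library 5 (lowest edgeR adjusted p of these 0.349).

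On day 5, miR-92b-5p averaged 10.7 ± 2.89 CPM with GDNF and 27.5 ± 20.4 CPM in controls, a log2 fold change of -1.36 ± 0.410 SE (95% interval -2.21 to -0.51) that missed the adjusted threshold (edgeR adjusted p = 0.0893). The value rested on the same control libraries and was -0.25 without both (edgeR adjusted p = 0.999). Without DIV5 control library 5 alone it was -0.86 (edgeR adjusted p = 0.516). Leaving out DIV5 control library 2, 3 or 4 instead gave -1.42, -1.59 and -1.59, which passed (edgeR adjusted p = 0.0468, 0.0262 and 0.0206). The number of all miRNAs called also varied with the library left out, as given in the closing section. DESeq2 gave -1.38 with an adjusted p of 0.0234, where 5.01% of miRNAs passed, and limma voom gave -1.01 with an adjusted p of 0.369. On day 1 it averaged 31.3 ± 8.66 CPM with GDNF and 25.8 ± 8.82 CPM in controls (log2 fold change 0.29 ± 0.429 SE, 95% interval -0.61 to 1.18, edgeR adjusted p = 1.0). The GDNF effects of the days differed by -1.65 ± 0.592 SE (95% interval -2.88 to -0.42), which missed the threshold (edgeR adjusted p = 0.436). No miRNA passed for this difference in edgeR, DESeq2 or limma voom (0 of 542 in edgeR, 50 at an unadjusted p under 0.05).

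The ratio of the arms showed the same pair of libraries. Per 10000 reads of miR-92b-3p there were 5.12, 7.07, 6.81, 4.14 and 4.31 reads of miR-92b-5p in DIV5 GDNF libraries. DIV5 control libraries had 31.0, 10.4, 5.57, 4.29 and 35.2 such reads. DIV1 GDNF libraries had 5.65, 4.82, 6.07, 6.86 and 3.69, and DIV1 control libraries 4.08, 5.996, 4.72, 5.80 and 2.31. Apart from DIV5 control libraries 1 and 5, all 18 libraries lay between 2.31 and 10.4, the highest of them being DIV5 control library 2.

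In DIV5 control libraries 1 and 5, the 5p arm made up 0.309% (95% Wilson interval 0.249% to 0.383%) and 0.350% (0.310% to 0.395%) of the reads of both arms, and in the other 18 libraries 0.0231% to 0.104%. Relative to the mean of DIV5 control libraries 2 to 4, libraries 1 and 5 had 2.84 and 4.14 times the CPM of miR-92b-5p and 0.623 and 0.800 times that of miR-92b-3p. Their reads assigned to no feature were 19.0% and 12.7% of these reads and the miRNA counts together, within the 9.51% to 19.5% of the other DIV5 libraries.

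**Figure D4:**
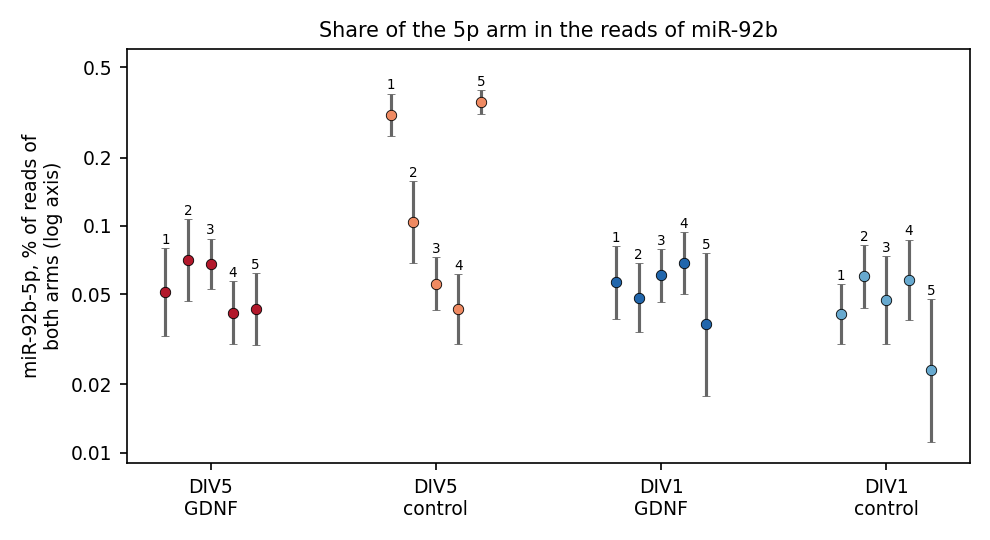
Percent of the reads of both miR-92b arms that were miR-92b-5p (y axis, log scale) in each library by group, with 95% Wilson intervals, which cover counting error only, and replicate numbers. DIV5 control libraries 1 and 5 are at 0.309% and 0.350%, and the other 18 libraries are at 0.104% or lower.

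No comparison of the arm ratio passed. On the log2 scale the mean ratio of miR-92b-5p to miR-92b-3p was -10.84 ± 0.36 in DIV5 GDNF, -9.66 ± 1.38 in DIV5 control, -10.85 ± 0.31 in DIV1 GDNF and -11.13 ± 0.53 in DIV1 control libraries (SD, n = 5 each). With GDNF, day 5 minus day 1 was 0.0034 (exact two-sided permutation p = 0.984, adjusted p = 0.984), and without GDNF it was 1.47 (exact p = 0.0794, adjusted p = 0.190). GDNF minus control was -1.18 on day 5 (exact p = 0.119, adjusted p = 0.238) and 0.28 on day 1 (exact p = 0.389, adjusted p = 0.583). Without DIV5 control libraries 1 and 5, the value for day 5 over day 1 in controls was 0.52 and that for GDNF on day 5 was -0.23.

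The 5p arms of related hairpins were less rare. miR-92a-1-5p had 75.7 ± 32.6 reads per 10000 reads of miR-92a-3p in DIV5 GDNF, 85.7 ± 29.1 in DIV5 control, 70.0 ± 13.1 in DIV1 GDNF and 63.7 ± 12.3 in DIV1 control libraries. miR-25-5p had 47.3 ± 10.8, 63.3 ± 17.7, 97.8 ± 20.5 and 99.2 ± 16.7 reads per 10000 reads of miR-25-3p in the same groups. The highest value for miR-92b in any library, 35.2, was below the lowest library of miR-25 (37.5) and of miR-92a-1 (44.1). As miR-92a-3p also comes from another hairpin, Mir92-2, the value of miR-92a-1 is not the arm ratio of a single hairpin.

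Lists of miRNAs known from other cell states were set beside miR-92b, as a description, to be read against the 52.4% of all tested miRNAs called with GDNF and the 60.7% called without. Of the 13 miRNAs of the miR-17-92 cluster and its paralogs, a group known for promoting cell division, 13 fell and 0 rose between day 1 and day 5 both with and without GDNF. Their median log2 fold change was -1.40 with GDNF and -1.20 without, where the median of all tested miRNAs was 0.00 and 0.10. The list shares miR-92a-3p, miR-25-3p and miR-363-3p with the seed family.

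Of 10 miRNAs known from neural progenitors and neurogenesis, 1 rose and 5 fell with GDNF (median -0.72), and 3 rose and 5 fell without it (median -0.46), where 25.1% of all tested miRNAs rose and 27.3% fell with GDNF and 31.4% rose and 29.3% fell without. The called part of this list with GDNF, 6 of 10, was near that of all miRNAs. miR-9-5p, the most abundant of them, had a log2 fold change of 0.0017 ± 0.153 SE with GDNF and -0.11 ± 0.153 SE without, neither of which passed (edgeR adjusted p = 0.993 and 0.537). miR-16-5p, a brake on cell-cycle genes, fell by 0.67 ± 0.123 with GDNF and by 0.36 ± 0.123 without on the log2 scale (edgeR adjusted p = 0.000133 and 0.0151).

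Of 12 neuronal miRNAs 10 could be tested, of which 8 rose and 0 fell with GDNF (median 1.27) and 10 rose and 0 fell without it (median 1.49). miR-124-3p, the main miRNA of neurons, rose by 1.31 ± 0.106 with GDNF and by 1.36 ± 0.106 without on the log2 scale (edgeR adjusted p = 1.05e-08 and 4.92e-09). miR-128-3p, also abundant in neurons, rose by 1.33 ± 0.267 and by 1.61 ± 0.269 (edgeR adjusted p = 0.00037 and 4.74e-05). The summed level of this list was 19307 to 23628 CPM in DIV5 GDNF, 20632 to 28614 in DIV5 control, 7859 to 11065 in DIV1 GDNF and 7313 to 11263 in DIV1 control libraries, and its member miR-138-5p is listed at 0 in all 4 groups. miR-138-5p has several hairpins, as has miR-219a-5p below, and since the counting of reads that match several positions is not given, a 0 of these may not mean that they were absent.

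Lists for other cell types were also counted. Their counts stand against the same 52.4% and 60.7% of all miRNAs called, and nothing particular to a list is read from them. Of 9 miRNAs of blood and vessel cells 7 could be tested, of which 1 rose and 4 fell both with GDNF (median -1.22) and without (median -1.46). miR-143-3p, a miRNA of smooth muscle, fell, with log2 fold changes of -1.76 ± 0.458 SE with GDNF and -2.10 ± 0.463 SE without (edgeR adjusted p = 0.00365 and 0.00079), and miR-451a, a miRNA of red cells named after its values were seen, fell too, with log2 fold changes of -1.90 and -2.10 (edgeR adjusted p = 0.00212 and 0.000837). The joint line of miR-486a-5p and miR-486b-5p, also miRNAs of red cells, rose by 1.05 ± 0.152 and by 0.80 ± 0.152 (edgeR adjusted p = 7.84e-06 and 0.000142). The summed level of the list was 6678 to 7394 CPM in DIV5 GDNF, 4181 to 6384 in DIV5 control, 5163 to 7355 in DIV1 GDNF and 5452 to 7865 in DIV1 control libraries, with miR-126a-5p at 0 in all 4 groups. Of 9 glial and microglial miRNAs 5 could be tested, of which 1 rose and 2 fell with GDNF (median -0.72) and 2 rose and 2 fell without (median -0.18). Among them miR-219a-2-3p, from an oligodendrocyte miRNA hairpin, fell by 1.45 ± 0.196 and by 1.02 ± 0.193 (edgeR adjusted p = 3.39e-06 and 0.000142), whereas miR-21a-5p had -0.08 ± 0.095 and -0.18 ± 0.095 and did not pass. The summed level of the glial list was 2964 to 3390 CPM in DIV5 GDNF, 2942 to 3421 in DIV5 control, 3450 to 4158 in DIV1 GDNF and 3268 to 3961 in DIV1 control libraries, with miR-219a-5p listed at 0 in all groups and miR-338-3p at 0 in both DIV1 groups. The part of these cell types in the fall of miR-92b-3p was not tested. No member of any list was called for GDNF by edgeR on either day.

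Likeness of profile was measured as the root mean square difference of log2(CPM + 0.5) over the 20 libraries after each miRNA's own mean was subtracted, among miRNAs with a mean of at least 50 CPM. Nearest to miR-92b-3p among 286 such miRNAs was miR-363-3p, a seed family member from the X-linked paralog of miR-17-92, at 0.159, where the median over all was 0.917. miR-3078-5p (0.271), miR-130b-5p (0.277), miR-8114 (0.290) and the family member miR-25-3p (0.298) followed, whereas miR-92a-3p was 44th at 0.556.

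miR-363-3p had 234, 157, 168, 200.0 and 171 CPM in DIV5 GDNF, 112, 170, 159, 195 and 155 CPM in DIV5 control, 562, 458, 522, 518 and 390 CPM in DIV1 GDNF, and 574, 496, 483, 539 and 375 CPM in DIV1 control libraries. As with miR-92b-3p, all DIV5 libraries lay below all DIV1 libraries and DIV5 control library 1 was the lowest. The libraries share their day, depth and replicate structure, so these distances describe profiles and nothing more.

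Nearest to miR-92b-5p, among 287 miRNAs with a median distance of 0.933, was miR-217-5p at 0.491, followed by miR-296-3p (0.516), miR-219a-2-3p (0.575), miR-135a-1-3p (0.593) and miR-872-3p (0.594). miR-217-5p had 65.7, 55.4, 29.2, 38.9 and 32.8 CPM in DIV5 GDNF and 264, 62.2, 33.8, 32.7 and 204 CPM in DIV5 control libraries, and was also at least 2-fold raised in DIV5 control libraries 1 and 5. The next profiles, miR-296-3p, miR-219a-2-3p, miR-135a-1-3p and miR-872-3p, were not raised 2-fold in both, but each was higher there than in DIV5 control libraries 2 to 4. In libraries 1 and 5 miR-296-3p had 426 and 387 CPM, against 155 to 248 in libraries 2 to 4. miR-219a-2-3p had 348 and 411 against 204 to 241 CPM. miR-135a-1-3p had 1057 and 816 against 420 to 590 CPM, and miR-872-3p had 498 and 879 against 228 to 317 CPM. miR-92b-3p, from the same hairpin, was 119th in likeness to miR-92b-5p, at 0.898.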

How the data were processed

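The deposited values are raw counts per mature miRNA, with no normalization, in 20 libraries. Per the submitters' processing notes, the tools were cutadapt 1.8.1, STAR 2.4.1d and HTSeq on build mm10; the miRNA annotation is not given in the sources used here. Tally lines (5 per library) were left out. edgeR 4.0.16 (R 4.3.3) kept 542 of 1581 detected miRNAs (filterByExpr, at least 99.9% of counts), scaled libraries by TMM and fitted all 20 in 1 quasi-likelihood model with 1 coefficient per group. Adjusted p-values (Benjamini-Hochberg, threshold 0.05) cover all 542, and SE is the log2 fold change over the root of F. Library measures were compared by exact permutation tests, with a pseudocount of 0.5 in the arm ratio. The members, lists, tests and naming rule (every member of the seed family, the 2 most abundant of each list, the 5 nearest profiles of each arm) were chosen with earlier results of these data known. No 2 libraries of the same group were near-identical (lowest chi-square per degree of freedom 10.3). Pairs from different groups were not checked. The labels give replicate numbers only. Deviations of same-numbered libraries correlated at 0.217 to 0.639 on day 5, where 4 of 5 GDNF libraries correlated best with the control of their own number. On day 1 the correlations were 0.0764 to 0.655, with 2 of 5 such libraries, and between days they were -0.166 to 0.178. These values do not establish pairs, and the main tests are unpaired. Alternatives were DESeq2 1.42.0, limma 3.58.1 voom, other scalings, filters and pseudocounts, a replicate block, subsets of libraries and leaving out each library. The fit was tested on simulated data.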

Additional observations from a re-analysis of the deposited data

How the results depend on the processing

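Of 394 recomputed values of 22 results, 336 kept their direction and their side of the threshold, 24 turned, 30 no longer passed and 4 newly passed. The fall of miR-92b-3p with time in culture passed in all 20 alternatives with and without GDNF, with log2 fold changes of -1.57 to -1.29 and -1.69 to -1.40, and that of miR-92b-5p with GDNF passed in all 20 (-1.67 to -1.31). Scaling by total counts moved the median of all miRNAs between the days by 0.15 with GDNF and by 0.25 without on the log2 scale. The cause of the turns below was not tested.

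Without DIV5 control libraries 1 and 5, the log2 fold change of miR-92b-3p with GDNF on day 5 was -0.062, its difference between days -0.070, its share of counts -0.144 percentage points, and miR-92b-5p between the days without GDNF -1.04. The shares between the days without GDNF were then -3.02 points of all counts and 14.5 of the family, both with no overlap. They no longer passed after adjustment, though their exact permutation p was the smallest that 5 against 3 libraries allow. Of the lists, again without these 2 libraries and without GDNF, 12 of 13 miRNAs of miR-17-92 and paralogs fell, 2 progenitor miRNAs rose and 6 fell, 10 neuronal ones rose, 1 glial one rose and 2 fell, and 1 of blood and vessel rose and 4 fell. In this setting and comparison, 53.8% of all 530 tested miRNAs were called. With GDNF the median log2 fold changes were then 1.31 for neuronal miRNAs, -0.67 for progenitor, -0.69 for glial and -1.19 for blood and vessel ones. That of miR-17-92 and paralogs was -1.37, where the median of all tested miRNAs was 0.04. With no filter, miR-92b-3p with GDNF on day 1 was -0.012, and with total count scaling its difference between days was -0.0081. limma voom gave -0.28 for miR-92b-5p between the days without GDNF, DESeq2 gave -1.38 for GDNF on day 5, and a pseudocount of 5 gave an arm ratio of -0.060 between the days with GDNF.

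With a replicate block, miR-92b-5p between the days without GDNF was -0.00065. The paired shares between the days were -3.23 without and -3.37 with GDNF, and those in the family 13.3 and 9.97 (exact sign-flip test over 5 pairs, which cannot go below 0.0625, so that none can pass). The block changed no other call of a miR-92b arm or measure. 

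In a split chosen after seeing the data, DIV5 replicates 3 to 5 against all DIV1 libraries gave -3.06 points of all counts without and -3.24 with GDNF, and 16.0 and 14.2 points of the family. DIV5 replicates 1 and 2 gave -3.48 and -3.56, and 9.12 and 3.59. None passed, and with these few libraries no p here can go below 0.0357 and 0.0952 before adjustment.

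Leaving out 1 library at a time gave -0.41 to 0.32 for miR-92b-5p between the days without GDNF, -1.59 to -0.86 for it with GDNF on day 5, and -0.061 to 0.12 for miR-92b-3p with GDNF on day 1. The share of miR-92b-3p was -3.59 to -2.99 points between the days with GDNF, -0.168 to 0.518 with GDNF on day 1 and -0.0608 to 0.163 on day 5. Its part in the family was 8.02 to 12.3 points between the days with GDNF and -3.35 to 0.946 with GDNF on day 5, and the arm ratio was -0.11 to 0.10 between the days with GDNF.

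miRNAs called for GDNF on day 5 numbered 1, against 26 in DESeq2, 13 with a mean of at least 10 CPM, 3 with the replicate block, 2 in DIV5 replicates 3 to 5, 2 in DIV5 replicates 1 and 2, 0 in the 2 groups alone, 0 without DIV5 control libraries 1 and 5, and 0 to 43 with a library left out. The difference between days gave 1 call in DIV5 replicates 3 to 5, 1 without DIV5 control library 2, against 0 otherwise. Counts of 7 reads leave the level of miR-92b-5p in the shallowest libraries loosely measured.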
